A study of Mus musculus with 24 samples.

Results

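The autophagy machinery described here is a set of 44 named mouse genes that act in starting autophagy, making the PI3P lipid signal, supplying membrane, attaching the LC3 family to membrane, binding cargo and fusing the finished vesicle with the lysosome. The members were picked by gene symbol from a named list, and all 44 were found in both of the authors' deposited tables among the 19134 genes that the tables share. Autophagy is the route by which a cell encloses its own cytoplasm, organelles or protein aggregates in a double membrane, the autophagosome, and delivers them to the lysosome for breakdown. The kinase complex mTORC1 holds it back in fed cells by phosphorylating the Ulk1 complex and Atg13, so inhibitors of mTOR are widely used to switch it on. This control acts largely on proteins already made, and transcript levels do not measure the flow of material through the pathway.

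The study used E14, an established mouse embryonic stem cell line grown in serum and LIF, as wild-type cells and as 2 Smad2 knockout lines. Smad2 is a signal-driven transcription factor activated by the receptors for Nodal and activin. Each of the 3 genotypes was kept in control medium or was paused with 200 nM INK128, an inhibitor of the mTOR kinase, for 12 h, and 4 replicates were collected in each of the 6 groups, giving 24 poly(A) RNA libraries. The comparison made in each condition was Smad2 knockout against wild type. The labels do not say whether a knockout line is 1 clone, how the lines were made, or whether the replicates were separate cultures, so the p-values measure the spread between these samples, which may be technical.

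Values came from the authors' deposited tables, 1 per condition, each normalized separately. A table gives for each gene a mean normalized count over its libraries, a log2 change between genotypes with its standard error (SE), and a p-value adjusted over all genes. Values per library, the libraries' depths and the libraries that entered each comparison are not given there, so no spread over samples can be shown. The tables do not name the direction of the change, and a positive value was read as higher in the knockout, since Smad2 then fell, by 0.35 (SE 0.070) in control medium and by 0.63 (SE 0.057) under INK128. Its transcript thus stayed at 0.786 and 0.646 of the wild-type level. Lefty1 and Lefty2, targets of Nodal signalling, were on that reading at 0.175 and 0.135 of wild type in control medium and at 0.0987 and 0.115 under INK128. A gene is called here where the deposited adjusted p was under 0.05. The precision was high, with a median SE over the members of 0.055 in control and 0.050 in paused cells.

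Markers of embryonic stem cells were strongly present, with the 7 listed genes summing to 4704 ppm of the summed mean counts of all genes in control and 4102 ppm in paused cells. Of these 7, Nanog was called higher and Utf1 lower in the knockout in both tables, and Pou5f1 was called lower in control cells. The 5 primitive endoderm markers summed to 8.07 and 9.04 ppm, and 4 of the 5 were called higher in the knockout in each table. The 5 fibroblast markers summed to 19.4 and 21.0 ppm, with 1 called higher and 3 called lower in each table. The 2 measured mesoderm markers summed to 12.7 and 12.8 ppm, with 2 and 1 called lower, and the 2 neuroectoderm markers to 11.6 and 7.03 ppm, with 1 called higher and 1 lower in each table. No measured marker was listed at 0. The part of such cells in the autophagy values was not tested. In these bulk libraries a change in the share of cells that express a gene and a change in its RNA per cell cannot be told apart.

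In control cells 25 of the 44 members were called, 18 higher and 7 lower in the knockout. Among all 19780 genes measured in control cells, 41.4% were called, 19.5% higher and 21.9% lower, and the share reached 50.0% where the mean was 5 ppm or more. In paused cells 28 members were called, 17 higher and 11 lower. Among all 19979 genes measured in paused cells, 42.6% were called, 20.5% higher and 22.0% lower, and 51.6% among genes of at least 5 ppm. The members' own shares were 56.8% in control and 63.6% in paused cells, a little above those of genes of at least 5 ppm.

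No member changed by 2-fold, and 4 changed by at least 1.5-fold in either table. The shares of all genes past these limits are not given here, so these counts are not read as few or many. Gabarapl2 rose by at least 1.5-fold in both tables, and Atg14 and Atg16l2 did so in control cells only. Gabarapl1 fell to 64.4% of the wild-type level in control cells. The median change over the members was 0.06 in control and 0.01 in paused cells, beside 0.00 and -0.00 over all genes and -0.05 in both tables over genes of at least 5 ppm. The median size of a change, whatever its sign, was 0.17 and 0.16 over the members, 0.22 and 0.21 over all genes, and 0.15 and 0.13 over genes of at least 5 ppm. Against a change of at most 1.2-fold, 4 members kept their call in control cells (10.6% of all genes) and 3 in paused cells (10.6%). With each statistic divided by the middle spread of all genes, 1 kept its call in control cells (1.48% of all genes) and 3 in paused cells (2.25%). That spread was taken over all genes, called ones included, so it does not measure noise alone. A real change can lose its call by this division.

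The higher share of the members' calls also depended on scaling. It was 72.0% in control cells and 84.6% both when the median change of genes of at least 5 ppm was set to 0 and when the genotypes' summed counts were made equal. The same share over all called genes moved alike, from 47.1% to 60.1% and 60.5%. In paused cells it was 60.7%, 75.0% with the median change set to 0 and 69.2% with equal sums, beside 48.2%, 60.9% and 57.6% over all called genes. These scalings shifted every log2 change by 0.04 to 0.06 and turned the direction of no called member.

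The sign of the change was shared between the conditions for 38 of the 44 members (86.4%), beside 79.6% of all genes and 81.5% of genes of at least 5 ppm. The call was the same in both tables for 21 members, 16 higher and 5 lower, beside 14.3% and 16.0% of the genes in both tables. No member was called in opposite directions, beside 0.162% of all genes, and 12 (27.3%) were called in neither, beside 44.2%. The 5 that fell in both were Vmp1, Atg3, Gabarap, Gabarapl1 and Optn.

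**Figure D1:**
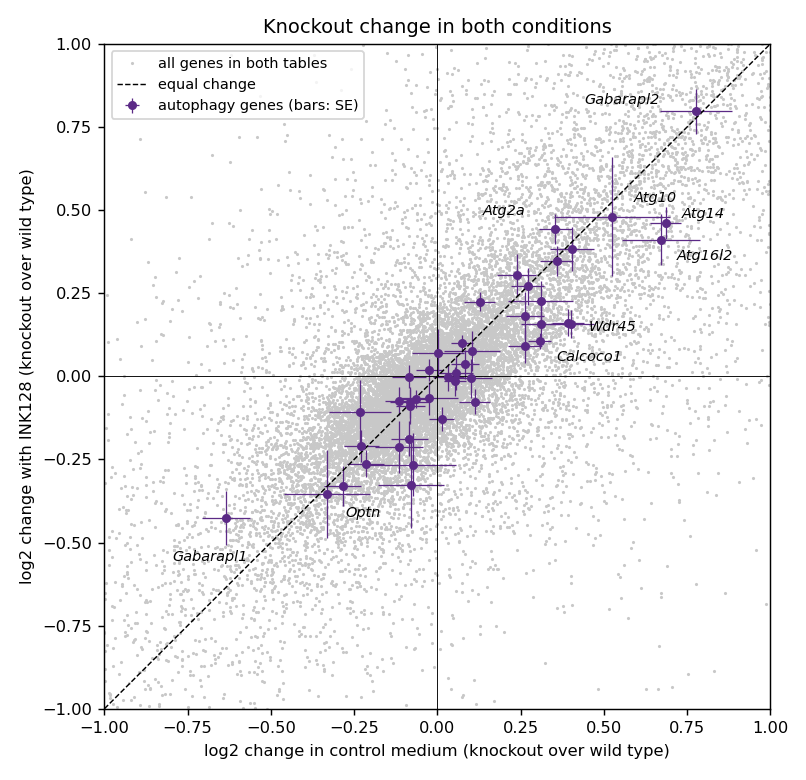
Each of the 44 members by its deposited log2 change, Smad2 knockout over wild type, in control cells (x axis) and paused cells (y axis). Gabarapl2 has the highest value and Gabarapl1 the lowest on both axes, and 38 of the 44 had the same sign in both.

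The widest contrast lay inside the LC3 family, the small ubiquitin-like proteins that are attached to the autophagosome membrane and recruit cargo receptors. Gabarapl2, a GABARAP-subfamily member also known as GATE-16, rose by 0.78 (SE 0.11, adjusted p = 1.01e-11) in control cells and by 0.80 (SE 0.068, adjusted p = 2.43e-29) in paused cells, as the authors' deposited tables give it, that is to 171% and 174% of the wild-type level. Its close relative Gabarapl1 moved the other way and fell by 0.63 (SE 0.072, adjusted p = 4.42e-17) in control and by 0.43 (SE 0.080, adjusted p = 1.01e-06) in paused cells, to 64.4% and 74.4%. Gabarap, the founding member of the subfamily, fell by 0.23 (SE 0.054, adjusted p = 0.00013) and by 0.21 (SE 0.047, adjusted p = 5.74e-05). The 3 GABARAP genes were therefore called in both conditions, 1 higher and 2 lower.

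In the LC3 subfamily neither gene was called in control cells. Map1lc3b, whose lipid-bound protein is the standard autophagosome marker, had a change of 0.01 (adjusted p = 0.813) in control cells and fell by 0.13 (SE 0.036, adjusted p = 0.00155) in paused cells. Map1lc3a had -0.12 (adjusted p = 0.196) in control and fell by 0.21 (SE 0.079, adjusted p = 0.0197) in paused cells. Both paused calls were lost with the median change set to 0, at adjusted p = 0.0588 for Map1lc3b and 0.0797 for Map1lc3a. With equal summed counts the call of Map1lc3b was kept (adjusted p = 0.0276) and that of Map1lc3a was lost (adjusted p = 0.0582).

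The family's abundant members differed in length-corrected level. These levels are means pooled over the knockout and wild-type libraries of a table, and ranks within a genotype are not known. Each mean was divided by the length of the gene's longest annotated transcript. A gene that is mainly read from a shorter transcript is thus given too low a level and rank. Gabarapl2 had 5376 mean counts per kilobase in control and 4031 in paused cells, ranks 1 and 3 among the members. Gabarap had 1507 and 2868 per kilobase, Map1lc3b 809 and 1035, Map1lc3a 831 and 570, and Gabarapl1 353 and 317. Of the 3 GABARAP genes, the member that rose had the highest pooled mean per kilobase in both tables. Since Gabarapl2 rose in the knockout while Gabarap and Gabarapl1 fell, this order need not hold in wild-type cells. Processed copies in the genome are a limit here, since 3 pseudogenes resemble the Gabarapl2 transcript at 95% identity or more, the nearest being Gm3724 with 99.4% over 349 bases, and 4 resemble Map1lc3b. Tmem41b has 1 such pseudogene, and Atg4a has a near-identical gene, Atg4a-ps, annotated as protein coding. Gabarapl1 shares 570 bases with 1700101I11Rik on the opposite strand. None of these copies and neighbours has a row in either table under its annotation symbol, and how reads that fit several places were counted is not stated. Here and below, older symbols of such genes were not tried, so a missing row may be a difference of naming.

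The promoters of the 2 GABARAP genes that moved furthest apart, of Atg14, which changed most among the lipid kinase genes, and of Atg3, the 1 matched member with the long CLEAR-type motif, are shown so that their letters can be compared. Each run is the 250 bases before the annotated start, on the gene's own strand, from RefSeq on build GRCm38.p6. Capitals mark CACGTG, the E-box bound by the TFEB family of lysosome and autophagy regulators, and TCACGTGA, its longer palindromic form, which contains the former.
Gabarapl2, chr8:111940453-111940702, plus strand: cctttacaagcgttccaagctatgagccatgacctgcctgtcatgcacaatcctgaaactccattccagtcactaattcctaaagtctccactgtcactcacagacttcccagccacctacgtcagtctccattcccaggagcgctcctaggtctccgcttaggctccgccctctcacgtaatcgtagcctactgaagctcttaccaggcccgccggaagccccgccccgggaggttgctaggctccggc
Gabarapl1, chr6:129532942-129533191, plus strand: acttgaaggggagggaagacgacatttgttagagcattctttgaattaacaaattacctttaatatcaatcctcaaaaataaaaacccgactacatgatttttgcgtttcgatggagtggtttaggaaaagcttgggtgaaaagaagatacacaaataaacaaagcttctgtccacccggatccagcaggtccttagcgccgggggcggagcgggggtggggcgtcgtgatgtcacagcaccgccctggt
Atg14, chr14:47568435-47568684, minus strand: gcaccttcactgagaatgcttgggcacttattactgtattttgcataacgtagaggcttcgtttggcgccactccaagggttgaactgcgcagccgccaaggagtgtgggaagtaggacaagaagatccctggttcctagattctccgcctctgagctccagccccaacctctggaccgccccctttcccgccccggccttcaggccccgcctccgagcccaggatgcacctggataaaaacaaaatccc
Atg3, chr16:45158579-45158828, plus strand: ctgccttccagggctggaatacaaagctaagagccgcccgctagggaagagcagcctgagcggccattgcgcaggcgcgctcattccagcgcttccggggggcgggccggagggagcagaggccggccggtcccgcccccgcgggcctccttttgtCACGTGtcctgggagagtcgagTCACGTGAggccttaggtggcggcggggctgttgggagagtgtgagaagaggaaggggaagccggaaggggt

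The first 3 promoters hold no capitals. Promoter sequence was matched for 36 members, with 43 promoters in all. CACGTG, searched on both strands, occurred in 3 of the 43 (6.98%), those of Atg3, Atg5 and Atg7, and in 6.02% of 32851 promoters of the same length. TCACGTGA occurred in 1 of the 43 (2.33%), that of Atg3, and in 0.785% of all. GTAAACA, a forkhead (FOXO) motif, occurred in none of the 43 and in 3.17% of all, and GTCTAGAC, the palindromic SMAD-binding motif, in none and in 0.167% of all. A match or its absence describes these letters in this window alone. Of the 3 genes with CACGTG, Atg3 fell in both conditions, and Atg5 and Atg7 were called in neither. The Atg7 window, chr6:114670846-114671095, lies inside the annotated gene, which begins at 114643127, so it precedes an internal start. Windows of other members also lie inside their genes, among them those of Wdr45, Atg4c, Atg10, Tmem41b and Optn. The motif counts include such windows, so not every matched window precedes the outermost start of its gene.

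Atg3 and the other genes of the conjugation system did not move as a block. This system attaches Atg12 to Atg5 and the LC3 family to lipid through enzymes related to those of ubiquitin transfer. Of its 7 genes, 3 were called higher, 1 lower and 3 not in each table. Atg3, the E2-like enzyme for the LC3 family, fell by 0.22 (SE 0.055, adjusted p = 0.000496) in control and by 0.26 (SE 0.041, adjusted p = 1.45e-09) in paused cells. Atg10, the E2-like enzyme for Atg12, rose by 0.52 (SE 0.17, adjusted p = 0.00878) and by 0.48 (SE 0.18, adjusted p = 0.0203) with low means over all libraries of the table of 90.6 and 55.7 normalized counts.

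Atg12, the ubiquitin-like protein itself, rose by 0.24 (SE 0.058) and by 0.30 (SE 0.063). Atg16l2, a relative of the scaffold Atg16l1, rose by 0.67 (SE 0.12, adjusted p = 1.31e-07) in control cells and by 0.41 (SE 0.076, adjusted p = 6.73e-07) in paused cells. Atg16l1 itself had -0.02 and 0.02 and was called in neither table. The E1-like enzyme Atg7 had 0.00 and 0.07, and Atg5 had -0.08 and -0.09, none of them called.

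**Figure D2:**
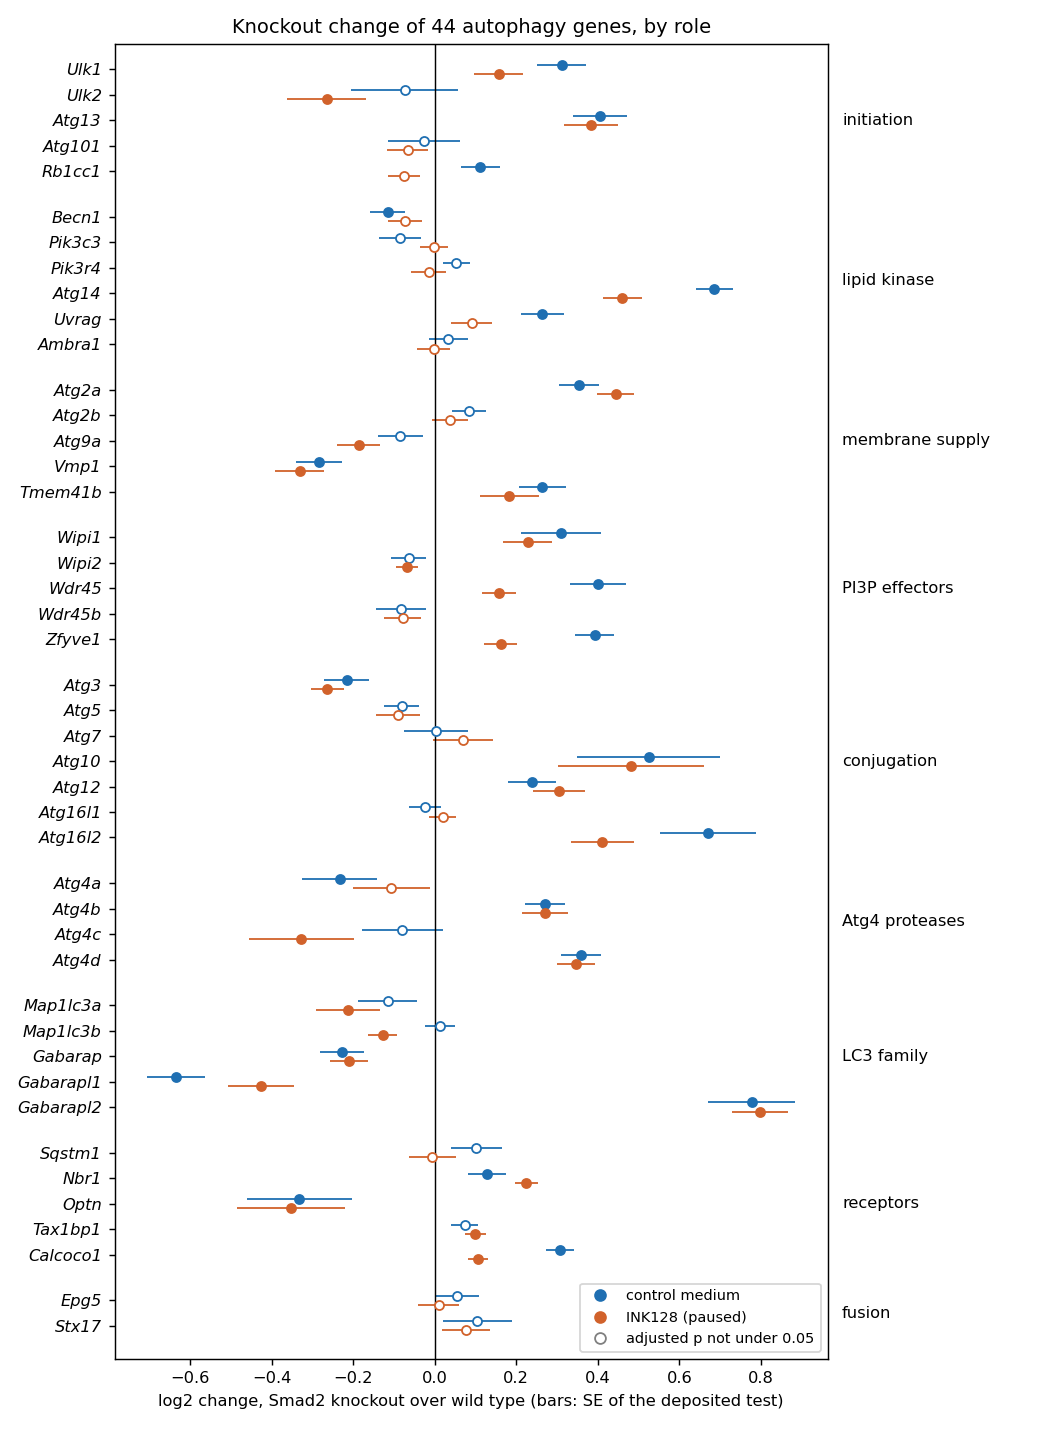
Deposited log2 change with its SE for each of the 44 members, ordered by role, in control and paused cells. Higher and lower values stand side by side within most of the 9 roles, as with Gabarapl2 and Gabarapl1 in the LC3 family.

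The Atg4 proteases trim LC3-family proteins before conjugation and release them from membrane afterwards. Atg4b, the main mammalian enzyme, rose by 0.27 (SE 0.049, adjusted p = 3.96e-07) in control and by 0.27 (SE 0.056, adjusted p = 1.02e-05) in paused cells. Atg4d rose by 0.36 (SE 0.050, adjusted p = 1.36e-11) and by 0.35 (SE 0.046, adjusted p = 1.23e-12). The other two were much less abundant, with means of 212 to 254 normalized counts. Atg4a fell by 0.23 (SE 0.093, adjusted p = 0.0313) in control cells and had -0.11 (adjusted p = 0.38) in paused cells. Atg4c had -0.08 (adjusted p = 0.554) in control cells and fell by 0.33 (SE 0.13, adjusted p = 0.0292) in paused cells. Both of these single-condition calls were lost under either scaling, at adjusted p = 0.11 for Atg4a and 0.0563 to 0.0685 for Atg4c. Atg4d overlaps Kri1 on the opposite strand over 1405 bases, and Kri1 had changes of -0.03 and 0.09, not called.

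Upstream, the initiation complex showed higher transcripts of its kinase and of its regulatory subunit. Atg13, the subunit that mTORC1 phosphorylates, rose by 0.41 (SE 0.066, adjusted p = 1.52e-08) in control and by 0.38 (SE 0.066, adjusted p = 6.36e-08) in paused cells, to 132% and 130% of wild type. Ulk1, the kinase, rose by 0.31 (SE 0.061, adjusted p = 2.83e-06) in control and by 0.16 (SE 0.061, adjusted p = 0.0271) in paused cells. Its paralogue Ulk2, at 137.9 and 308.1 mean normalized counts against 14792 and 21808 for Ulk1, had -0.07 (adjusted p = 0.688) in control cells. In paused cells Ulk2 fell by 0.27 (SE 0.096, adjusted p = 0.0166). That call was lost with the median change set to 0 (adjusted p = 0.0556) and kept with equal summed counts (adjusted p = 0.0422). Rb1cc1, the large scaffold also called FIP200, rose by 0.11 (SE 0.048, adjusted p = 0.0482) in control cells and had -0.08 (SE 0.039, adjusted p = 0.107) in paused cells. Its antisense neighbour 4732440D04Rik, which shares 558 bases with it at means of 31.5 and 51.5 normalized counts, had 0.29 (adjusted p = 0.401) in control and fell by 0.66 (adjusted p = 0.00229) in paused cells. Atg101, which stabilises Atg13, had -0.03 and -0.07, not called. Over the 5 genes, 3 were called higher and 2 not in control cells, and 2 were called higher, 1 lower and 2 not in paused cells.

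In the lipid kinase complexes, which make PI3P at the forming membrane, one subunit stood apart. Atg14, which directs the complex to autophagosome formation, rose by 0.69 (SE 0.045, adjusted p = 5.31e-49) in control cells and by 0.46 (SE 0.048, adjusted p = 9.26e-20) in paused cells, to 161% and 138% of wild type. It was the only member that kept its call in control cells under every alternative tried, and one of 3 that did so in paused cells, with Atg2a and Gabarapl2. Uvrag, which replaces Atg14 in the endosomal form of the complex, rose by 0.26 (SE 0.052, adjusted p = 3.81e-06) in control cells and had 0.09 (SE 0.050, adjusted p = 0.136) in paused cells, which was called higher under both scalings (adjusted p = 0.0173 and 0.0314).

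The shared core of the kinase had values near 0. The catalytic subunit Pik3c3 had -0.08 and -0.00, the regulatory subunit Pik3r4 had 0.05 and -0.01, and the regulator Ambra1 had 0.03 and -0.00, none called. Under both scalings Pik3r4 was called higher in control cells (adjusted p = 0.00541 and 0.00462). Becn1, the shared scaffold, fell by 0.11 (SE 0.043, adjusted p = 0.0204) in control cells, a call lost under both scalings (adjusted p = 0.255 and 0.271), and had -0.07 in paused cells. Becn1 overlaps Cntd1 on the opposite strand over 3104 bases, and Cntd1, with means of 58.5 and 99.5 normalized counts, had 0.34 (adjusted p = 0.122) in control and rose by 0.43 (adjusted p = 0.00579) in paused cells. Atg14 overlaps Gm49004 over 239 bases, and Uvrag overlaps Gm45187 over 1589 bases, both on the opposite strand. Neither neighbour has a row in either table under that symbol. Whether the authors counted reads by strand is not stated.

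Genes that supply membrane went both ways. Atg2a, which carries lipid from the endoplasmic reticulum into the growing membrane, rose by 0.35 (SE 0.049, adjusted p = 9.86e-12) in control and by 0.44 (SE 0.046, adjusted p = 1.09e-20) in paused cells, while its paralogue Atg2b had 0.08 and 0.04 and was called in neither, although its control value was called higher under both scalings (adjusted p = 0.00457 and 0.00401). Atg2b shares 383 bases with Gskip on the opposite strand, which fell by 0.27 (adjusted p = 0.00369) in control cells and had -0.05 (adjusted p = 0.751) in paused cells. The 2 endoplasmic reticulum scramblases moved apart. Tmem41b rose by 0.26 (SE 0.057, adjusted p = 2.21e-05) and by 0.18 (SE 0.072, adjusted p = 0.0287), and Vmp1 fell by 0.28 (SE 0.056, adjusted p = 2.96e-06) and by 0.33 (SE 0.060, adjusted p = 3.68e-07). Atg9a, the scramblase of the seed vesicles, had -0.08 in control cells and fell by 0.19 (SE 0.052, adjusted p = 0.00143) in paused cells. It shares 1832 bases with Gm29253 on the same strand, which has no row in either table.

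Among the PI3P effectors, 3 of 5 were called higher in each table. Wdr45, also called WIPI4, rose by 0.40 (SE 0.069, adjusted p = 7.21e-08) in control and by 0.16 (SE 0.042, adjusted p = 0.000719) in paused cells. It shares 818 bases with Gm45208 on the same strand, which has no row in either table. Zfyve1, which marks the membrane sites where autophagosomes form and is also known as DFCP1, rose by 0.39 (SE 0.047, adjusted p = 5.56e-15) and by 0.16 (SE 0.040, adjusted p = 0.000259). Wipi1 rose by 0.31 (SE 0.099, adjusted p = 0.00587) and by 0.23 (SE 0.061, adjusted p = 0.000748). Wipi2, which recruits Atg16l1, had -0.06 in control cells and fell by 0.07 (SE 0.028, adjusted p = 0.033) in paused cells, a call lost under both scalings (adjusted p = 0.352 and 0.574). Wdr45b had -0.08 in both tables, not called.

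The cargo receptors link ubiquitin-tagged or other cargo to the LC3 family. Sqstm1, also known as p62, is itself degraded by autophagy and is the receptor most often read at the protein level. Its transcript had 0.10 (adjusted p = 0.182) in control and -0.01 (adjusted p = 0.946) in paused cells, and the control value was called higher under both scalings (adjusted p = 0.033 and 0.0308). Sqstm1 shares 580 bases with Mrnip on the opposite strand, which has no row in either table under that symbol. Nbr1 rose by 0.13 (SE 0.046, adjusted p = 0.0171) and by 0.22 (SE 0.028, adjusted p = 7.85e-14). Calcoco1, a receptor for the endoplasmic reticulum and Golgi, rose by 0.31 (SE 0.034, adjusted p = 1.02e-17) in control and by 0.11 (SE 0.025, adjusted p = 0.000114) in paused cells.

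Optn, a receptor for mitochondria and bacteria, fell by 0.33 (SE 0.13, adjusted p = 0.0284) and by 0.35 (SE 0.13, adjusted p = 0.0205), and its control call was lost under both scalings (adjusted p = 0.0738 and 0.0758). Tax1bp1 had 0.07 (adjusted p = 0.0572) in control cells, called higher under both scalings (adjusted p = 0.00053 and 0.000432), and rose by 0.10 (SE 0.026, adjusted p = 0.000546) in paused cells. The 2 fusion genes, the SNARE Stx17 and the tether Epg5, had 0.06 to 0.10 in control and 0.01 to 0.08 in paused cells and were called in neither.

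The difference between the conditions was tested directly, by subtracting the control change from the paused one and dividing by the SE of the result, with p adjusted over the 19134 genes. The test is two-sided, with a normal approximation, and treats the tables as independent. The change was called smaller in paused cells for 3 members (6.82%), beside 1.44% of all genes called in either direction and 0.721% called lower. Calcoco1 differed by -0.20 (95% interval -0.28 to -0.12, adjusted p = 0.000963), Zfyve1 by -0.23 (-0.35 to -0.11, adjusted p = 0.0223) and Atg14 by -0.23 (-0.36 to -0.10, adjusted p = 0.0477). All 3 rose in both conditions. The calls of Zfyve1 and Atg14 were lost at an adjusted p under 0.01, and all 3 were lost against a difference of at most 1.2-fold and once the statistic was divided by its middle spread.

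At an unadjusted p under 0.05, 7 of the 44 members had a lower change in paused cells, beside 6.22% of all genes. None had a higher one, for which no share over all genes is given here. The other 4 failed the adjustment: Wdr45 at -0.24 (adjusted p = 0.0963), Rb1cc1 at -0.19 (adjusted p = 0.0961), Map1lc3b at -0.14 (adjusted p = 0.161) and Uvrag at -0.17 (adjusted p = 0.245). The difference was below 0 for 31 of the 44 members (70.5%) and for 48.7% of all genes. Of the 16 members that rose in both tables, 12 (75.0%) had the smaller value in paused cells, beside 50.7% of the 2740 genes that rose in both. Of the 5 that fell in both, 2 had the smaller fall in paused cells, beside 58.2% of the 3052 such genes.

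Some members with large changes had no called difference. Gabarapl2 differed by 0.02 (95% interval -0.23 to 0.27, adjusted p = 0.977) and Atg16l2 by -0.26 (-0.53 to 0.01, adjusted p = 0.428). Gabarapl1 differed by 0.21 (SE 0.11, adjusted p = 0.399), its fall being the smaller in paused cells.

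**Figure D3:**
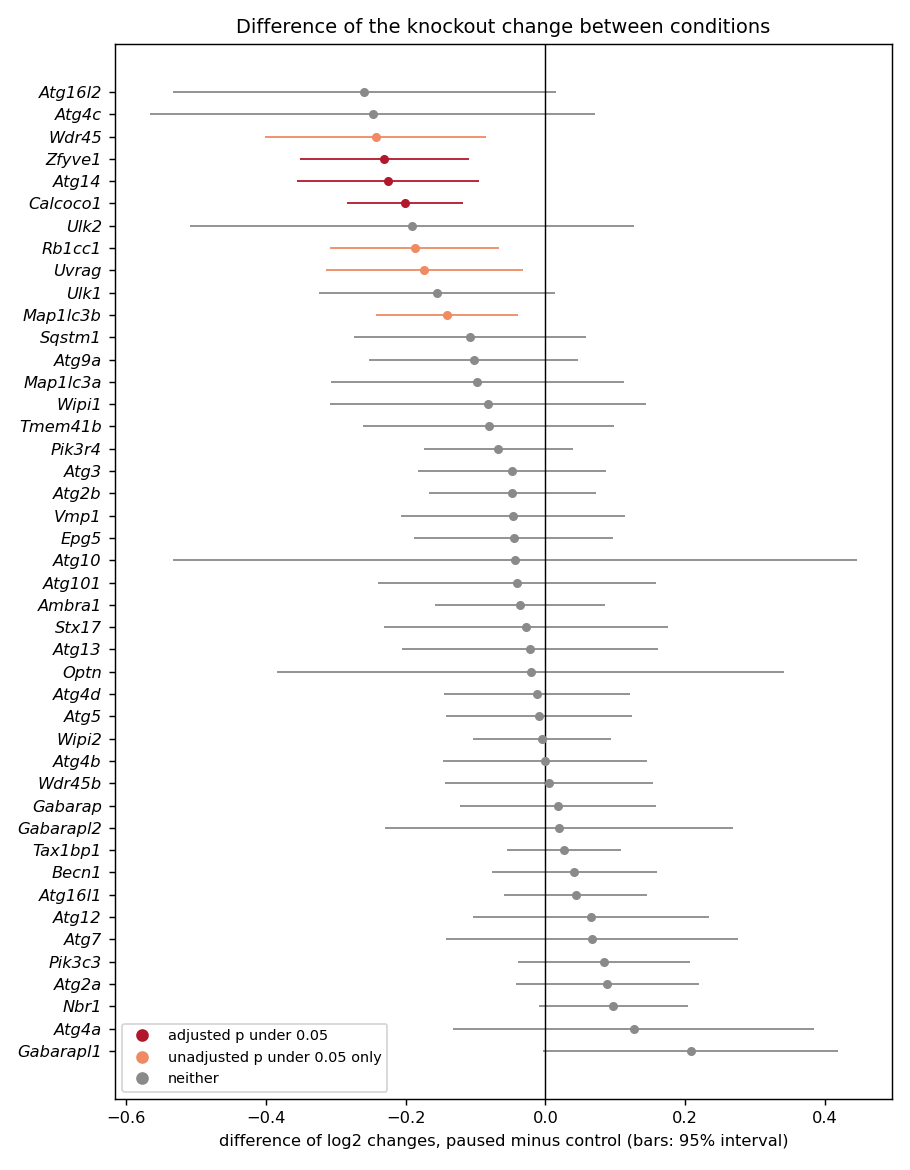
Difference of the log2 change, paused minus control, with its 95% interval for each member. Most points lie below 0, and Calcoco1, Zfyve1 and Atg14 are the members called after adjustment.

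Levels in the 2 conditions can be set side by side only as a description, because the tables were normalized separately, mix knockout and wild-type libraries and carry no error for the mean. Relative to the summed means of its table, the ppm level was higher in paused cells for 30 of the 44 members and lower for 14, with a median ratio of 1.32 beside 1.06 over all genes. It was at least 1.5-fold higher for 12 members (27.3%), beside 21.1% of all genes, and at least 1.5-fold lower for 1, beside 14.1%. Wipi1 had the widest ratio at 3.71, followed by Calcoco1 at 3.18, Optn at 2.40, Ulk2 at 2.32 and Gabarap at 1.98. Lowest were Atg10 at 0.639, Map1lc3a at 0.713, Atg5 at 0.748 and Atg101 at 0.762.

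Per kilobase, Ulk1 (2838 in control and 4183 in paused cells) and Sqstm1 (2704 and 4122) stood with Gabarapl2 at the top of the members in mean normalized counts. The means pool knockout and wild-type libraries, so the place of Gabarapl2, which rose in the knockout, need not hold in wild-type cells. Tax1bp1, with 2056 and 3311, held rank 5 in control and rank 4 in paused cells. The lowest were Ulk2 with 24.0 and 53.7 and Atg10 with 57.2 and 35.2. Ulk1 was thus over its paralogue Ulk2 in both tables. Neighbours in this order were not tested, since the tables hold no library values.

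**Figure D4:**
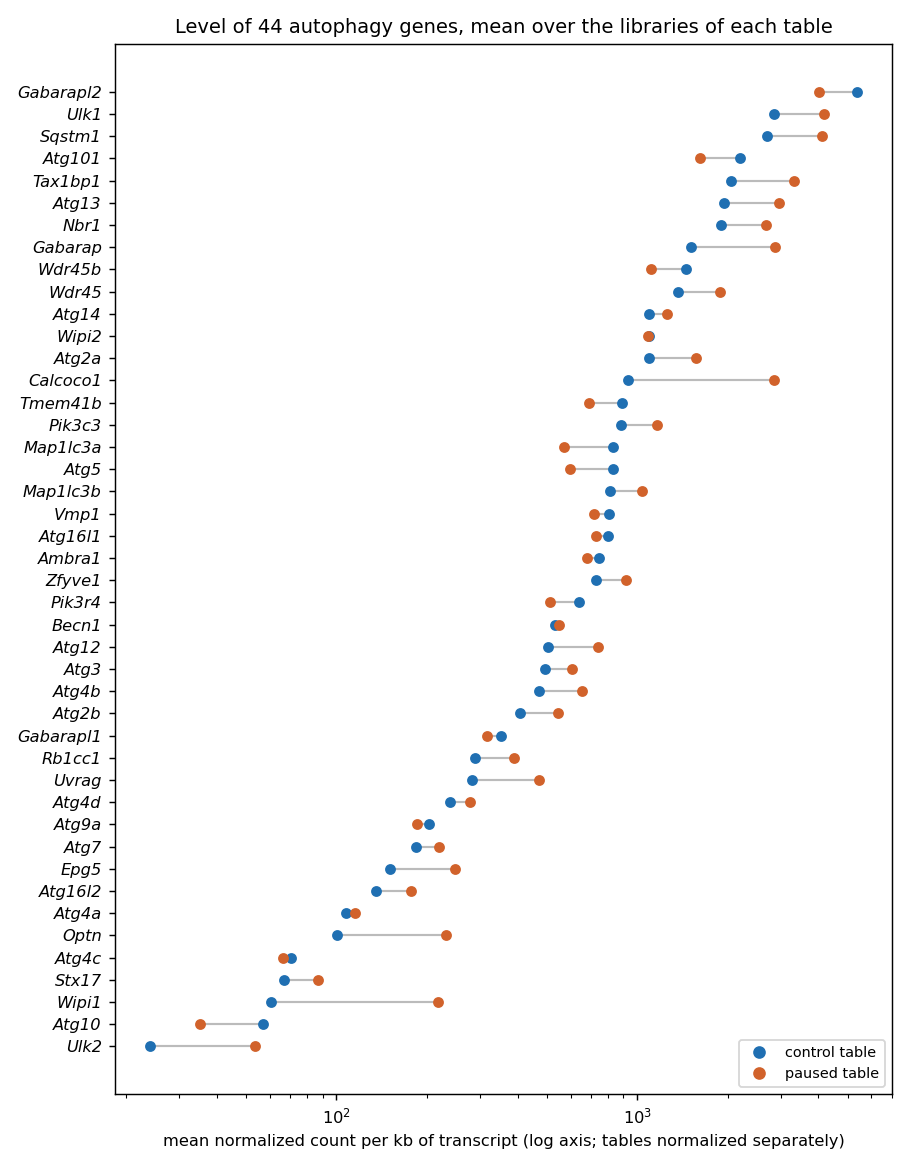
Mean normalized count per kilobase of the longest annotated transcript for each member in the control and paused tables, on a log axis. Each point is a mean over the knockout and wild-type libraries of its table together. Gabarapl2, Ulk1 and Sqstm1 lie highest, and Ulk2 and Atg10 lie lowest.

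A wider list of 67 autophagy genes that are not among the 44 also held calls in both directions. In control cells 66 were measured, with 19 called higher, 16 lower and 31 not called, and in paused cells 67 were, with 19 higher, 15 lower and 33 not called. The shares called were 53.0% and 50.7%, near those of genes of at least 5 ppm given earlier. Of 10 partners and phosphatases of the lipid kinase pathway, 1 was called higher and 3 lower among the 9 measured in control cells, and 2 higher and 3 lower under INK128. Bcl2, which binds and restrains Becn1, fell by 2.18 (SE 0.24, adjusted p = 1.82e-17) and fell by 2.75 (SE 0.24, adjusted p = 2.02e-27) with low means over knockout and wild-type libraries together of 50.3 and 68.7 normalized counts.

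Of 19 further selective receptors, 8 were called higher and 4 lower in control cells, and the paused table had 7 and 4. Calcoco2, also called NDP52, rose by 1.35 (SE 0.14, adjusted p = 9.99e-20) and by 1.90 (SE 0.15, adjusted p = 2.22e-33). Stbd1, a receptor for glycogen, fell by 1.94 and by 1.73. Ccpg1, an endoplasmic reticulum receptor, rose by 0.58 and by 0.50, and Pink1, the kinase that marks damaged mitochondria, by 0.53 and by 0.47.

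Of 9 transcription factors that control autophagy genes, 3 were called higher and 4 lower in control medium, with 3 and 3 under INK128. Mitf rose by 0.68 and by 0.40 and Foxo3 by 0.45 and by 0.25, while Foxo1 fell by 0.36 and by 0.35. Tfe3 fell by 0.32 and by 0.24, and Zkscan3, a repressor of autophagy genes, fell by 0.28 and by 0.30. Among 16 upstream kinases and regulators, 3 were called higher and 4 lower without INK128, then 3 and 2 with it, with Deptor, an mTOR inhibitor protein, rising by 0.25 and by 0.36. Of 13 fusion genes, 4 were called higher and 1 lower in control cells, against 4 and 3 in the paused table, among them Vps39, a subunit of the HOPS tether, which rose by 0.19 and by 0.28.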

How the data were processed

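The sample titles gave each library's genotype and treatment. Per the submitters' processing notes, FastQC, Trim Galore, HISAT2, featureCounts and DESeq2 were used with build mm10, and versions, annotation and the use of strand are not given in the sources used here. The labels name a directional library kit. The mean normalized count is a signal value averaged by the authors over each table's libraries, per the file headers. The deposited change and its SE are on the log2 scale, and the deposited statistic, a score, is the change over its SE. A p-value, raw and adjusted, was deposited for each gene.

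From these, Python 3.11.15 with numpy 2.4.6, pandas 2.3.3 and scipy 1.17.1 computed counts, ppm shares, levels per kilobase and the test of the difference, with Benjamini-Hochberg adjustment over 19134 genes. The computation was tested on simulated data. Near-identical copies were searched with BLAST 2.17.0, and figures were drawn with matplotlib 3.10.9. Tests on single libraries (a quasi-likelihood fit, leaving out replicates, a replicate block) could not be fitted, because the tables hold results and not counts, and no depth per library is known. All members may be named. By the rule set for them, full statistics go to those called in both tables with at least a 1.25-fold change in either, called in 1 table with that change, or with an unadjusted p under 0.05 for the difference. The text goes beyond that rule and also gives SEs and adjusted p-values of other called members. From each wider list at most 5 genes are named, by size of the mean change among those called in both tables. The members and lists were chosen with earlier results of these data known.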

Additional observations from a re-analysis of the deposited data

Results flagged for a closer look

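A test of the difference itself, with p adjusted over 19134 genes, marked 3 members whose change on Smad2 loss differed between paused and control cells, beside 1.44% of all genes. The paused change minus the control change was -0.23 for Atg14 (SE 0.066), -0.23 for Zfyve1 (SE 0.062) and -0.20 for Calcoco1 (SE 0.042), all on the log2 scale. Each of the 3 was higher in the knockout in both deposited tables. All 3 calls were lost against a difference of at most 1.2-fold and with the statistic divided by its middle spread, and those of Atg14 and Zfyve1 also at an adjusted p under 0.01.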

How the results depend on the processing

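No called member changed direction under any alternative run. Against a change of at most 1.2-fold, the calls numbered 4 in control cells, 3 in paused cells and 0 for the difference, beside 10.6%, 10.6% and 0.0105% of all genes. The members with an unadjusted p under 0.05 in that test were 7, 4 and 0. With the statistic divided by its middle spread (2.76, 2.80 and 1.23), the calls numbered 1, 3 and 0 (1.48%, 2.25% and 0.183% of all genes), and 11, 8 and 6 had an unadjusted p under 0.05. At an adjusted p under 0.01 the calls numbered 20, 20 and 1, the last being Calcoco1 (30.9%, 32.3% and 0.533% of all genes). With the median change set to 0 they were 26, 24 and 3 (39.7%, 40.9% and 1.51%), and with summed counts made equal 26, 26 and 3 (39.8%, 41.1% and 1.54%). Among genes of at least 5 ppm, with p adjusted again over those alone, they were 24 of 40, 26 of 42 and 3 of 41 members (51.6%, 53.0% and 2.93% of those genes). Of the main calls, 1 of 25 in control cells, 3 of 28 in paused cells and 0 of 3 for the difference held in every alternative. The middle spread was taken over called genes as well, so a real change can lose its call there.

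No paired analysis was possible because the deposited tables hold results over libraries and no value per library. For the same reason leaving out each replicate and a comparison of DESeq2 with edgeR were not run. The making of equal sums assumes 4 wild-type and 8 knockout libraries in each table. Depth is unknown, and Atg10, the member with the lowest mean count, had the largest SE in both tables.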

Other observations

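Calcoco2, a receptor outside the 44 members, had a mean over knockout and wild-type libraries together of 19089 normalized counts in control cells and 5308 in paused cells. The control mean was above that of every member, an order that need not hold in wild-type cells, since Calcoco2 was 2.55-fold higher in the knockout there. Its relative Calcoco1 had 2771 and 8472, so the mean counts of the pair took opposite orders in the tables, which were normalized separately. None of these counts is corrected for transcript length, so they do not rank Calcoco2 against Calcoco1 or the members by expression. Both were higher in the knockout in both tables.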
